A study of Rattus norvegicus and Mus musculus with 24 samples.

Results

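Cathepsins are the acid proteases of the lysosome, and 10 of their genes (CTSA, CTSB, CTSC, CTSD, CTSF, CTSH, CTSK, CTSL, CTSS and CTSZ) were followed here in kidneys that lack cystinosin, the lysosomal cystine exporter encoded by Ctns. They were picked by symbol, with earlier results of these data known. The mouse table listed 9 of the 10 among its 17376 symbols, with no row for CTSL, and the rat table listed 8 among 14931 symbols, with no row for CTSH or CTSS. The CTSL row of the rat table held no whole read in any animal. This left 7 cathepsins measured in both species (CTSA, CTSB, CTSC, CTSD, CTSF, CTSK and CTSZ). The tables count RNA and say nothing of protein amount, maturation or protease activity.

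Bulk RNA sequencing covered 4 Ctns knockout (KO) and 4 wild-type (WT) mice of the C57BL/6 background, and 8 KO and 8 WT rats of the Sprague-Dawley background, with 1 library per animal. The rats carry the numbers 17 to 24 and 25 to 32, with 4 KO and 4 WT animals in each range. The labels do not say what separates the ranges, give no age or sex, and do not say whether same-genotype animals shared a litter or an extraction. Kidney cortex is named as the tissue, proximal tubule cells as the cell type, and microdissected tubules in the extraction protocol, which speaks of mice for the rat libraries too. The study's methods name kidney cortex for the RNA sequencing of both species. How each line was disrupted is not given in the labels. Between 19309449 and 44449859 reads per mouse and between 24684097 and 40629873 reads per rat fell on listed symbols.

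Cathepsins differ in their catalytic residue and in how they cut. Cathepsin D (CTSD) is an aspartic endopeptidase, cathepsin A (CTSA) is a serine carboxypeptidase that also holds neuraminidase 1 and beta-galactosidase in a protective complex, and the others are cysteine proteases of the papain family. Among these, CTSF, CTSK, CTSL and CTSS are mainly endopeptidases, CTSC and CTSH trim the amino end of proteins, and CTSZ trims the carboxyl end. In the proximal tubule they degrade filtered proteins taken up by endocytosis, while CTSS and CTSZ are best known from macrophages and other antigen-presenting cells, and CTSK from osteoclasts and matrix-resorbing cells.

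CTNS itself was checked first. In mice its scaled value, defined as reads relative to the 75th percentile of the same library, was 0.342, 0.338, 0.319 and 0.331 in KO and 0.824, 1.02, 0.878 and 0.944 in WT kidneys. No KO mouse reached the WT range. In rats, CTNS ran from 16.8 to 22.2 normalised counts (CPM, reads scaled to library size by TMM) in KO and from 19.2 to 27.96 CPM in WT kidneys, and these ranges overlapped. The change in all rats was -0.22 on the log2 scale (edgeR, Benjamini-Hochberg adjusted p = 0.0511), and in rats 25 to 32 it was -0.32 (edgeR, adjusted p = 0.0391). It passed over all rats when the number range entered the edgeR model (adjusted p = 0.0232) and in DESeq2 (0.0402), and over 21 alternatives the adjusted p ran from 0.0232 to 0.134. A total count per gene cannot show whether the remaining rat transcript was intact, so it does not check the rat labels.

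Markers of several cell types had reads in every group. All 15 proximal tubule markers looked for had reads in mice, and 13 of them were listed in rats, where LRP2 and SLC5A12 had no row. Podocyte, endothelial, distal nephron, fibroblast and macrophage markers were also read in each animal group, so the libraries were not of pure proximal tubule. The 16 macrophage markers summed to scaled values of 5.96 to 6.99 in KO and 4.03 to 4.27 in WT mice. By the test described next, 11 of the 16 were higher in KO, as were 3.5% of all symbols. Their sum in rats 17 to 24 was 310.1 to 340.5 CPM in KO and 191.6 to 255.3 CPM in WT kidneys. The sum in rats 25 to 32 was 557.2 to 775.3 CPM in KO and 283.9 to 345.5 CPM in WT kidneys. In these tissue libraries, fewer cells of a type and less RNA per cell cannot be told apart.

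In mouse kidneys, the clearest changes were in CTSK and CTSS, both higher in KO, and both passed the test. Mouse values were compared with limma on log2(scaled value + 1) over all symbols. That scale understates the change of low genes, so the ratio of mean scaled values and the fold from recovered reads are given beside it. CTSK, a collagen-cleaving endopeptidase, had scaled values of 0.195, 0.2196, 0.213 and 0.159 in KO mice. In WT mice it had 0.0765, 0.0773, 0.071 and 0.0752. Every KO value was above every WT value, and the ratio of the means (0.197 ± 0.0271 SD in KO, 0.0750 ± 0.0028 SD in WT, n = 4 each) was 2.62. The difference was 0.15 on the log2(value + 1) scale (SE 0.016, limma adjusted p = 0.00586), and edgeR on the recovered reads (70 to 338 per mouse) gave 2.59-fold with an adjusted p of 1.76e-05.

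CTSS, the endopeptidase that matures class II antigen complexes, had scaled values of 0.666, 1.04, 0.831 and 0.783 in KO mice and 0.546, 0.450, 0.457 and 0.538 in WT mice. The groups did not overlap, and their means of 0.831 ± 0.159 and 0.498 ± 0.0516 (SD, n = 4 each) gave a ratio of 1.67. Its difference of 0.29 (SE 0.061) was just past the limma threshold of 0.05 (adjusted p = 0.0498). The call was lost when any of 7 of the 8 mice was left out, with adjusted p between 0.0372 and 0.126 over the 8. On recovered reads edgeR gave 1.64-fold with an adjusted p of 0.00358, and the range over all 12 alternatives was 1.25e-06 to 0.126. Ctsk and Ctss are neighbours on mouse chromosome 3 (GRCm38, GENCODE vM21). Ctsk lies at chr3:95499256-95509362 and Ctss at chr3:95526786-95556403, both on the plus strand and 17.4 kb apart.

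Thus 2 of 9 cathepsins passed the test in mice, both upward, where 3.5% of all 17376 symbols were called higher and 4.32% in either direction. The 9 cathepsins had a median difference of 0.16 on the log2(value + 1) scale, and the median over all symbols was 0. CTSC, CTSD, CTSK and CTSS had KO and WT values that did not overlap, all upward, while 11.6% of all symbols were apart in either direction.

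CTSD, the aspartic cathepsin, had scaled values of 21.99, 24.5, 24.2 and 21.2 in KO mice and 19.6, 19.9, 19.9 and 19.1 in WT mice. All KO values lay above the WT range, and the ratio of means was 1.17 (22.9 ± 1.62 against 19.6 ± 0.397, SD, n = 4 each). Its difference of 0.21 did not pass (SE 0.055, limma adjusted p = 0.0817). DESeq2 on the recovered reads called it higher (adjusted p = 0.018, against up to 0.211 over 12 alternatives). For CTSC, the dipeptidyl peptidase that activates granule proteases of leukocytes, the values were 0.836, 1.02, 1.01 and 0.803 in KO and 0.795, 0.768, 0.744 and 0.795 in WT mice. The lowest KO mouse was just above the highest WT mouse, and the difference of 0.11 did not pass (SE 0.041, limma adjusted p = 0.219).

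CTSA and CTSB shared a pattern set by 1 WT animal. CTSA, the carboxypeptidase of the neuraminidase complex, had scaled values of 8.71, 9.29, 8.95 and 8.49 in KO mice and 7.02, 8.98, 7.102 and 7.003 in WT mice. WT mouse 2 stood inside the KO range, and the other 3 WT mice stood below it. CTSB, a cysteine protease, had 21.9, 22.7, 23.5 and 21.03 in KO mice and 18.7, 22.2, 18.7 and 18.9 in WT mice. The high WT value was again that of mouse 2. Neither passed, with a difference of 0.22 for CTSA (SE 0.078, limma adjusted p = 0.197) and 0.18 for CTSB (SE 0.067, limma adjusted p = 0.225). Without WT mouse 2, the limma differences were 0.29 for CTSA (adjusted p = 0.0191) and 0.23 for CTSB (adjusted p = 0.0487). Over 12 alternatives the adjusted p of CTSA ran from 0.0191 to 0.387, and that of CTSB from 0.0487 to 0.437.

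The remaining mouse cathepsins were level or lower in KO, and their groups overlapped. CTSH, an aminopeptidase, had 3.84 ± 0.165 in KO and 4.38 ± 0.320 in WT mice (scaled value, SD, n = 4 each), and its difference of -0.15 did not pass (SE 0.048, limma adjusted p = 0.142). DESeq2 on the recovered reads called it lower (log2 change -0.21, adjusted p = 0.0396), and over 12 alternatives the adjusted p ran up to 0.315. CTSF had 2.04 ± 0.0524 in KO and 2.19 ± 0.190 in WT mice, with a difference of -0.07 (limma adjusted p = 0.499). CTSZ, a carboxypeptidase, ran from 3.63 to 3.89 in KO and from 3.26 to 4.10 in WT mice, so its KO values all lay inside the WT range. Its difference was -0.01 with an interval of -0.121 to 0.102. This and every interval below is a 95% interval from the SE by normal approximation, which is narrow for so few animals.

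**Figure D1:**
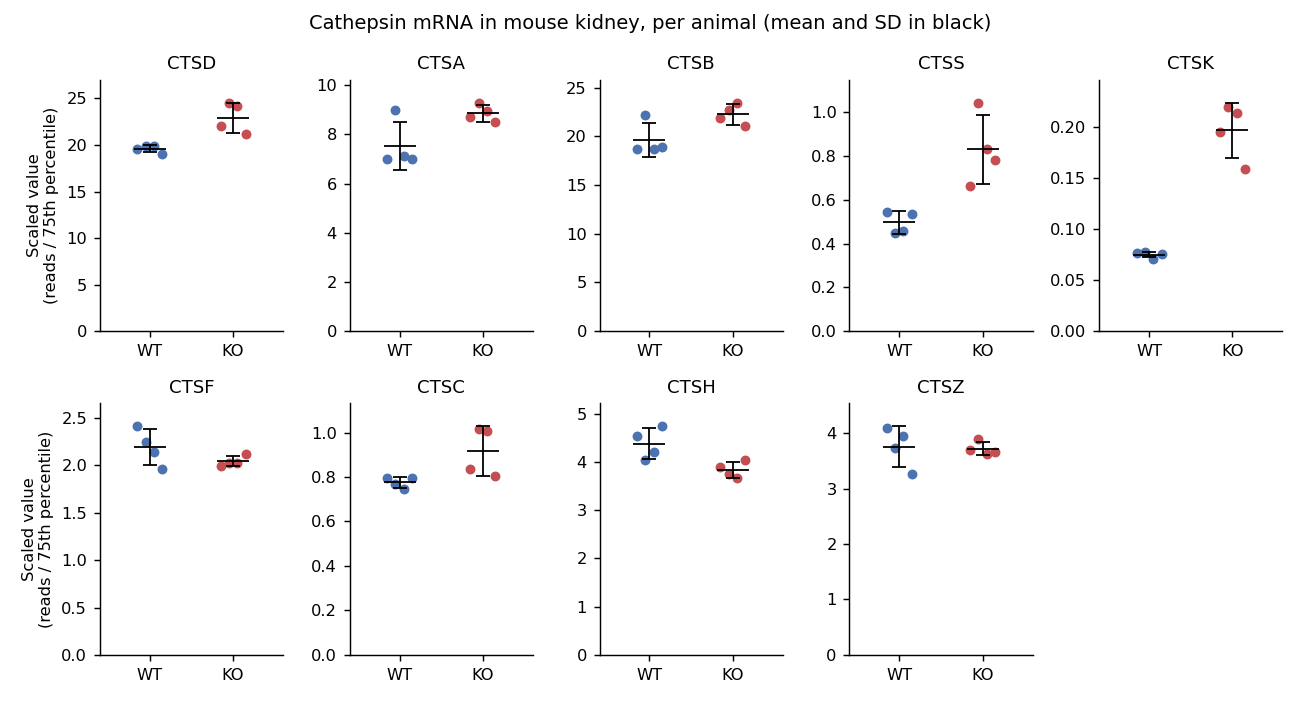
Scaled value of each listed cathepsin in every mouse (points; WT blue, KO red), with group mean and SD in black, n = 4 per group. CTSC, CTSD, CTSK and CTSS do not overlap between genotypes, and 1 WT mouse sits among the KO mice for CTSA and CTSB.

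In rat kidneys, CTSD, CTSK and CTSZ were higher in KO, and the size of each change depended on the number range. Rat reads were compared with edgeR's quasi-likelihood test, and levels are given as normalised CPM. Over all 16 rats, 3 of the 7 testable cathepsins passed, all upward, where 15.2% of 11584 symbols were called higher and 27.5% in either direction. Their median log2 fold change was 0.04, and that of all symbols was -0.02. The groups were apart for CTSZ alone among the 7, and for 5.88% of all symbols.

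CTSZ had the largest change of the 7 in the rat. Over 8 KO rats it ran from 24.6 CPM through a median of 36.2 to 69.2 CPM, and over 8 WT rats from 15.3 through 20.6 to 24.2 CPM. Each KO rat lay above the highest WT rat. The log2 fold change was 1.04 (SE 0.213, 2.05-fold, edgeR adjusted p = 0.00186). CTSD ran from 876.0 through 1252 to 1912 CPM in KO and from 742.3 through 809.8 to 949.8 CPM in WT rats. The groups overlapped, as WT rat 17 lay above 2 of the KO rats. The log2 fold change was 0.70 (SE 0.157, 1.62-fold, edgeR adjusted p = 0.0033). CTSK ran from 10.3 through 13.1 to 16.7 CPM in KO and from 8.46 through 10.01 to 10.5 CPM in WT rats, again overlapping, with a log2 fold change of 0.44 (SE 0.110, 1.35-fold, edgeR adjusted p = 0.00706).

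The other 4 did not pass over all 16 rats. CTSA had a log2 fold change of -0.23 (edgeR adjusted p = 0.136), and when the number range entered the model it was -0.22 and passed (adjusted p = 0.00837). Over its 21 alternatives the adjusted p ran from 0.00837 to 0.286. CTSB, CTSF and CTSC changed by -0.08, -0.05 and 0.04 (edgeR adjusted p between 0.509 and 0.652). Their intervals on the log2 scale were -0.246 to 0.0909 for CTSB, -0.159 to 0.0551 for CTSF and -0.0803 to 0.164 for CTSC.

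The sequence just upstream of the 3 genes that rose in rats is shown because the lysosomal gene regulators TFEB and TFE3 are known to bind the CLEAR element, whose core is CACGTG. RefSeq (rat build GRCr8) held a promoter entry for 9 of the 10 cathepsins, with none for Ctsb. The 250 bases before each start site are printed 5′ to 3′ on the strand of the gene, in lower case, with each CACGTG in capitals.
Ctsd (chr1:206968822-206969071, minus strand): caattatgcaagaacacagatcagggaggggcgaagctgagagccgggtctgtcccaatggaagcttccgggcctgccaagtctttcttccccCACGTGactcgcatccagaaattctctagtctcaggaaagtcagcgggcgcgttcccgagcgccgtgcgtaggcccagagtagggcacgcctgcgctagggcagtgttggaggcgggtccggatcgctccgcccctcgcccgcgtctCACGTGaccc
Ctsz (chr3:183653848-183654097, minus strand): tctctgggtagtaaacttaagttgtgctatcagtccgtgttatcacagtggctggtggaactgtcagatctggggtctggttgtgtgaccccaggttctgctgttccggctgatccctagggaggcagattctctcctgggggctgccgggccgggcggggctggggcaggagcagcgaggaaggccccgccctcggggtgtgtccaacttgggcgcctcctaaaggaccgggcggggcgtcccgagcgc
Ctsk (chr2:185747298-185747547, plus strand): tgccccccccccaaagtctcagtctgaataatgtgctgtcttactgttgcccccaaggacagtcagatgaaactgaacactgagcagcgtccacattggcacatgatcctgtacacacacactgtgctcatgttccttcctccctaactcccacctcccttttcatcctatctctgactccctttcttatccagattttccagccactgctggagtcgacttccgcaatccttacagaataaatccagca

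Ctsd held CACGTG at 2 places, at positions -157 and -10 counted from the start site, and the nearer match extended to TCACGTGA (from position -11). Ctsf held CACGTG once, at position -149, within the 30 bases accccgtggtcCACGTGcctcgcgtaaata (chr1:211582009-211582038, plus strand). No match was found in this window of Ctsa, Ctsc, Ctsh, Ctsk, Ctsl, Ctss or Ctsz. Both motifs read the same on either strand, and the longer one contains the shorter. The shorter was found in 5.59% of the 33469 rat promoters of the same length, and the longer in 0.657%. Of the 3 cathepsins that rose, Ctsd held the motif while Ctsz and Ctsk did not, and Ctsf held it without passing the test.

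The 2 number ranges gave different pictures. In rats 17 to 24, CTSZ alone among the 7 passed, where 7.26% of 11610 symbols were called and 5.07% called higher. It had 24.6, 26.2, 26.2 and 25.8 CPM in KO rats and 20.9, 21.2, 15.8 and 15.3 CPM in WT rats. The groups were apart, with a log2 fold change of 0.50 (SE 0.105, 1.42-fold, edgeR adjusted p = 0.0123). Across rats 25 to 32, CTSZ had 46.2, 69.2, 53.3 and 52.5 CPM in KO and 22.8, 18.4, 24.2 and 20.2 CPM in WT rats. Here the lowest KO rat lay well above the highest WT rat, with a log2 fold change of 1.38 (SE 0.129, 2.61-fold, edgeR adjusted p = 2.66e-05).

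CTSD went from a change that did not pass to one of the largest among the cathepsins. KO rats 17 to 24 had 947.4, 952.0, 876.0 and 996.6 CPM, and WT rats 949.8, 761.2, 824.5 and 742.3 CPM. WT rat 17 stood inside the KO range. The log2 fold change of 0.21 did not pass (SE 0.079, edgeR adjusted p = 0.133), and without WT rat 17 it was 0.29 and passed (adjusted p = 0.0204, against up to 0.309 over 12 alternatives). In rats 25 to 32 it had 1507, 1912, 1646 and 1685 CPM in KO and 834.3, 775.5, 795.1 and 834.0 CPM in WT rats. These groups were far apart, with a log2 fold change of 1.07 (SE 0.080, 2.10-fold, edgeR adjusted p = 6.32e-06).

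CTSK followed the same order. The values in rats 17 to 24 were 10.9, 11.9, 10.4 and 10.3 CPM in KO and 9.63, 10.04, 10.5 and 9.22 CPM in WT rats, and the change of 0.15 did not pass (SE 0.086, edgeR adjusted p = 0.357). In rats 25 to 32 it had 15.6, 14.3, 15.8 and 16.7 CPM in KO and 10.4, 8.46, 10.5 and 9.98 CPM in WT rats. The groups were apart there, with a log2 fold change of 0.68 (SE 0.09985, 1.60-fold, edgeR adjusted p = 0.000381).

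CTSA moved the other way in rats 25 to 32. It had 2256, 2221, 1877 and 2220.0 CPM in KO and 2433, 2649, 2804 and 2898 CPM in WT rats, and no KO rat reached the WT range. The log2 fold change was -0.32 (SE 0.083, 0.801-fold, edgeR adjusted p = 0.0108). The CTSA ranges overlapped in rats 17 to 24, at 1650.0 to 1854 CPM in KO and 1812 to 1969 CPM in WT rats, and the change of -0.10 did not pass (edgeR adjusted p = 0.374).

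In all, 4 of 7 cathepsins passed in rats 25 to 32, 3 upward and 1 downward, where 43.8% of 11633 symbols were called, 21.8% higher and 22.1% lower. The same 4 were apart between genotypes, as were 40.8% of all symbols. In rats 17 to 24 CTSZ and CTSF were apart, as were 13.9% of all symbols. CTSF had 53.6 to 59.4 CPM in KO and 61.6 to 66.9 CPM in WT rats of that range, and its change of -0.17 did not pass (edgeR adjusted p = 0.0911). The median log2 fold change of the 7 was -0.02 in rats 17 to 24 and 0.13 in rats 25 to 32, and over all symbols it was 0 and -0.01. CTSB and CTSC did not pass in either range, with log2 fold changes of -0.06 and -0.02 in rats 17 to 24 and -0.08 and 0.13 in rats 25 to 32.

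**Figure D2:**
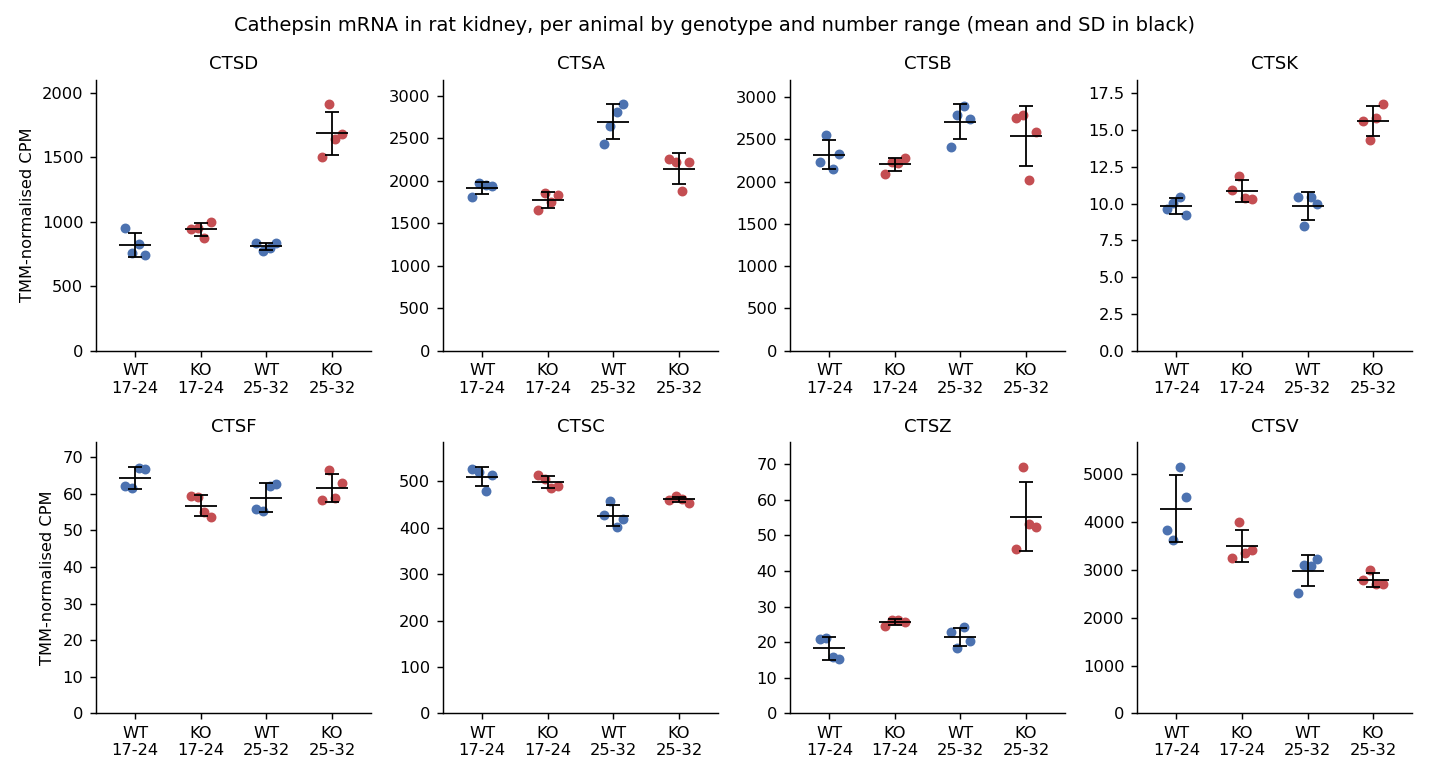
Normalised CPM of each testable cathepsin, and of the CTSV row, in every rat by genotype and number range (points; WT blue, KO red), with group mean and SD in black, n = 4 per group. CTSD, CTSK and CTSZ are highest in the 4 KO rats numbered 25 to 32, and CTSA is higher in WT rats 25 to 32 than in the other 3 groups.

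The difference between the ranges was tested as an interaction over all 16 rats. CTSD, CTSK and CTSZ passed, where 7.1% of 11839 symbols were called in that direction and 14.7% in either. Their change was larger in rats 25 to 32 by 0.86 for CTSD (SE 0.117, edgeR adjusted p = 0.000302), by 0.53 for CTSK (SE 0.124, adjusted p = 0.0103) and by 0.88 for CTSZ (SE 0.180, adjusted p = 0.00485), all on the log2 scale. CTSF differed by 0.25 and did not pass in edgeR (adjusted p = 0.0667), and DESeq2 called it (0.26, adjusted p = 0.0355, against up to 0.148 over 20 alternatives). For CTSA the difference was -0.21 (edgeR adjusted p = 0.162), for CTSC 0.15 (edgeR adjusted p = 0.157) and for CTSB -0.02 (edgeR adjusted p = 0.944).

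WT rats of the 2 ranges also differed from each other, where 21.1% of 11839 symbols were called, 11.7% higher and 9.43% lower in rats 25 to 32. CTSA was higher in WT rats 25 to 32 than in WT rats 17 to 24, at 2696 ± 203 against 1916 ± 70.9 CPM (SD, n = 4 each), and changed by 0.49 on the log2 scale (SE 0.073, edgeR adjusted p = 0.000132). CTSC was lower, at 426.4 ± 23.4 against 510.1 ± 20.7 CPM (SD, n = 4 each), a change of -0.26 (SE 0.051, edgeR adjusted p = 0.00164). Both were apart, as were 22.4% of all symbols. CTSD, CTSK and CTSZ did not pass between these WT groups, with changes of -0.02, -0.01 and 0.23 (edgeR adjusted p = 0.909, 0.979 and 0.238). Thus CTSD had 809.7 ± 29.3 CPM in WT rats 25 to 32 and 819.5 ± 93.7 CPM in WT rats 17 to 24 (SD, n = 4 each). The interval for its difference was -0.179 to 0.144 on the log2 scale.

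**Figure D3:**
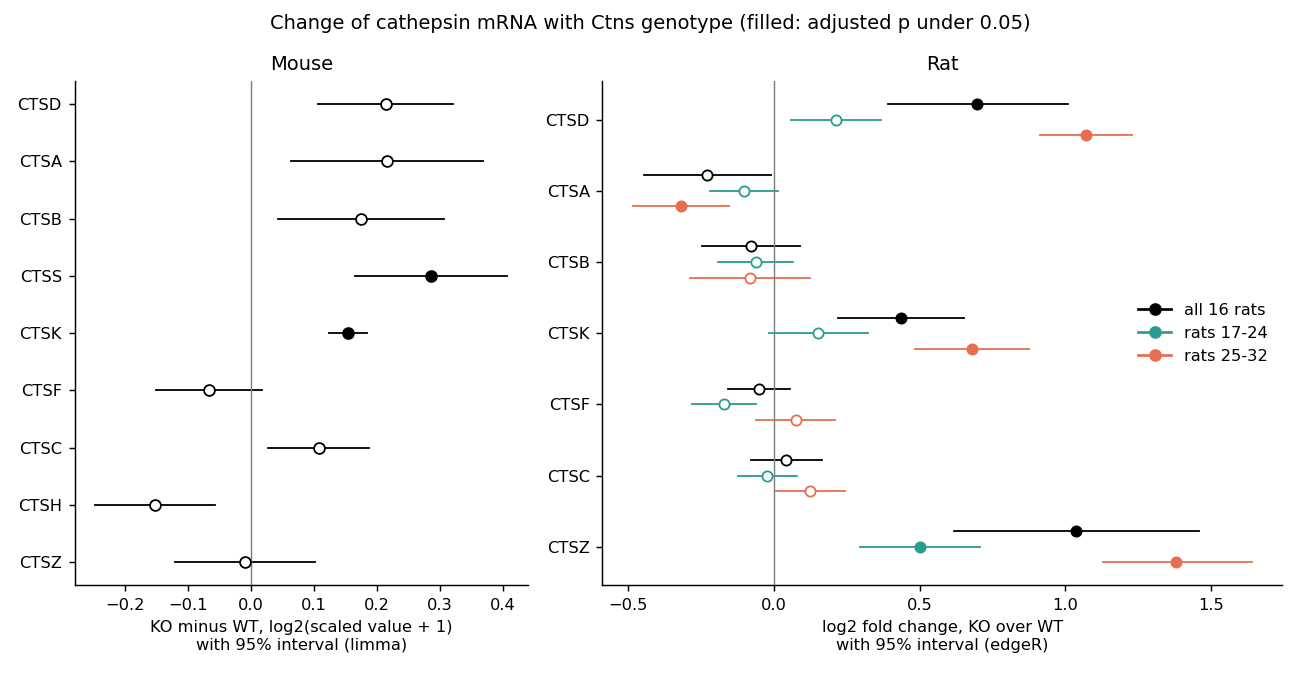
Change of each cathepsin with genotype: left, the mouse difference on the log2(scaled value + 1) scale from limma. Right, the rat log2 fold change from edgeR for all 16 rats and for each number range. Bars are 95% intervals from the SE by normal approximation, and filled points passed the adjusted threshold of 0.05. These bars run narrower than the tests. That of CTSA over all rats is -0.447 to -0.0112, with an unadjusted edgeR p of 0.0546. In rats 25 to 32 CTSD and CTSZ lie above 1 and CTSA lies below 0, and in mice CTSK and CTSS are filled.

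Cell type markers moved with these changes. In rats 25 to 32, 15 of 16 macrophage markers and 7 of 9 fibroblast and matrix markers tested (12 listed) were higher in KO. Of the proximal tubule markers, 12 of 13 were lower. The macrophage marker ADGRE1 overlapped between genotypes, at 14.9 to 18.1 CPM in KO and 12.5 to 18.8 CPM in WT rats of that range. Of all symbols in that range, 21.8% were called higher and 22.1% lower. The same counts in rats 17 to 24 were 12 of 16, 2 of 9 and 4 of 13. Fewer of all symbols were called there, 5.07% higher and 7.26% in either direction. The proximal tubule markers summed to 16170 to 20240 CPM in KO and 31070 to 35100 CPM in WT rats 25 to 32, and to 20570 to 21750 CPM in KO and 24540 to 27170 CPM in WT rats 17 to 24. The fibroblast and matrix markers summed to 563.9 to 637.3 CPM in KO and 303.9 to 370.3 CPM in WT rats 25 to 32. In mice, 5 of 12 fibroblast markers were higher, where 3.5% of all symbols were called higher. The fibroblast list summed to 9.59 to 10.6 in KO and 5.33 to 7.05 in WT mice (scaled values). Of the 15 mouse proximal tubule markers limma called none, with 3 lower at an unadjusted p under 0.05 and 2 called lower by edgeR on recovered reads. Their sums did not overlap, at 525.6 to 571.0 in KO and 610.9 to 730.7 in WT mice. No macrophage or fibroblast marker listed was without reads in any group. Their part in the cathepsin changes was not tested.

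Among the rats, KO rat 28 had both the highest macrophage sum (775.3 CPM) and the highest CTSZ (69.2 CPM) and CTSD (1912 CPM), while its CTSK (14.3 CPM) was the lowest of the 4 KO rats of its range. In mice, KO mouse 5 had the highest macrophage sum (6.99) and the highest CTSS (1.04) and CTSK (0.2196). It also had the highest CTSA (9.29), CTSC (1.02) and CTSD (24.5), which did not pass in mice. CTSB was highest in KO mouse 6 (23.5), and CTSF, CTSH and CTSZ were highest in WT mice.

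**Figure D4:**
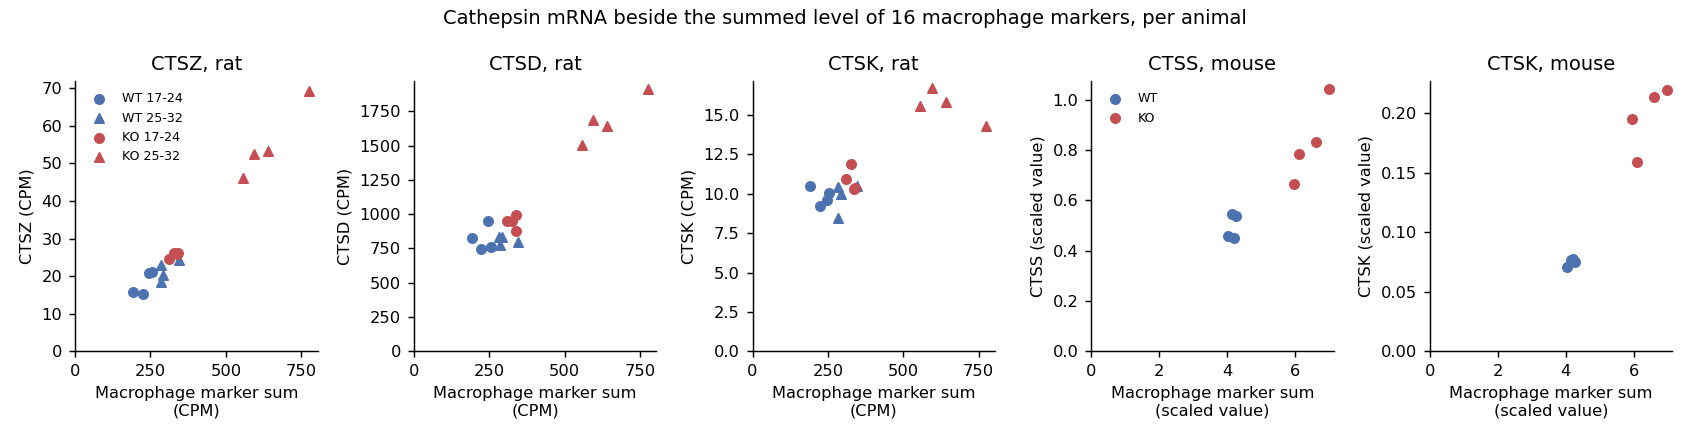
Level of CTSZ, CTSD and CTSK in each rat and of CTSS and CTSK in each mouse (vertical axes) against the summed level of 16 macrophage markers in the same library (horizontal axes), in CPM for rats and scaled values for mice. In rats, circles are numbers 17 to 24 and triangles 25 to 32. The 4 KO rats 25 to 32 stand apart on both axes, with marker sums of 557.2 CPM or more.

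Within groups, the symbols that varied most like each cathepsin were looked for over the 16 rats, after the mean of each genotype and range group was taken off the log2 CPM values of 10819 symbols. These are descriptions of points that share libraries and tissue make-up. The symbols named are the highest of all those compared, and the level that such a choice gives by chance was not worked out. CTSZ was most like CORO1A (Pearson r = 0.973), CD68 (0.923) and FERMT3 (0.923), which are genes of leukocytes. CTSD was most like CPT1C (0.936), BDH1 (0.912) and FOLR2 (0.903). CTSA was most like PHGDH (0.923), WNT5B (0.884) and CRAT (0.873). CTSB was most like AMT (0.853), CTSA (0.825) and APOC3 (0.812). For CTSK the 3 were NUDT18 (0.917), STX4 (0.875) and PANK4 (0.857), for CTSF ZDHHC7 (0.903), RNF215 (0.903) and MORN1 (0.900), and for CTSC GABBR2 (0.817), CDX4 (0.807) and S1PR1 (0.804).

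Between species, limma on log2(scaled value + 1) found none of the 7 shared cathepsins to change differently in rats and mice at the adjusted threshold, where 3.17% of 11216 symbols did. Unadjusted p was under 0.05 for 2 of them, CTSA (rat change minus mouse change -0.39, adjusted p = 0.211) and CTSZ (0.39, adjusted p = 0.141). The log2(scaled value + 1) scale understates the change of low genes, so the sizes of these differences depend on it. Over 27 alternatives, which include edgeR on reads, the CTSZ difference ran from 0.33 to 1.102 and never passed (adjusted p 0.0565 to 0.255). With edgeR on the reads of both species, CTSK differed by -0.91, its mouse change being the larger (adjusted p = 0.00722, against up to 0.505 over 27 alternatives). CTSD differed by 0.43 with an interval of -0.0206 to 0.885 (limma adjusted p = 0.327). The rat groups held both number ranges in this test.

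Of the cathepsins not among the 10, the rat table listed CTSE, CTSG, CTSV and CTSW, and the mouse table CTSE, CTSG, CTSO and CTSW. CTSG, a granule protease of neutrophils, had no read in any animal. CTSW, known from cytotoxic lymphocytes, ran from 2.91 through 5.69 to 10.2 CPM in KO and from 1.08 through 2.29 to 2.94 CPM in WT rats, with a log2 fold change of 1.55 (edgeR adjusted p = 0.000697). CTSE, an aspartic cathepsin of immune and gastric cells, had 4.28 ± 1.12 CPM in KO and 1.97 ± 0.377 CPM in WT rats (SD, n = 8 each), a change of 1.13 (edgeR adjusted p = 0.000198). In the lymphocyte list 7 of 8 tested markers were higher in KO rats, where 15.2% of all symbols were called higher. The list summed to 32.3 to 68.0 CPM in KO and 19.1 to 38.5 CPM in WT kidneys. Most of that sum was CD4 alone, at 21.3 to 41.7 CPM in KO and 14.0 to 29.4 CPM in WT rats. CD3D, by contrast, had 0.463 to 2.51 CPM in KO and 0.123 to 0.634 CPM in WT rats. The sum therefore mainly follows CD4. The part of lymphocytes in the CTSW and CTSE changes was not tested. In mice CTSE, CTSO and CTSW did not pass (limma adjusted p = 0.604, 0.863 and 0.253).

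The CTSV row of the rat table held 67102 to 167069 reads per rat. RefSeq names a Ctsl gene in the rat and no Ctsv, and the CTSL row had under 0.0774 of a read in each rat, below the 3 reads, or 0.0738 to 0.122 CPM, that a count of 0 allows. Whether the CTSV reads came from the rat Ctsl gene could not be settled from the table, so the row is uncertain and was kept out of the 7. Its change with genotype was -0.20 over all rats (edgeR adjusted p = 0.271). WT rats 25 to 32 had less of it than WT rats 17 to 24, with a log2 fold change of -0.52 (SE 0.106, edgeR adjusted p = 0.002).

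The inhibitors of cathepsins moved in part. In mice 3 of 10 were higher in KO, where 3.5% of all symbols were called higher. CSTB (stefin B), which blocks CTSB and CTSL in the cytosol, had a difference of 0.26 (limma adjusted p = 0.0146), SERPINB8 of 0.14 (adjusted p = 0.0224) and SERPINB6 of 0.07 (adjusted p = 0.0345), the last with counts that were not whole reads and so uncertain. When each of the 8 mice was left out in turn, the SERPINB8 call held in 5 of the fits and the SERPINB6 call in 1, with adjusted p up to 0.0703 and 0.1. In rats 3 of 8 were higher, where 15.2% of all symbols were called higher and 27.5% in either direction. CST3 (cystatin C), a secreted inhibitor of cysteine cathepsins, had 553.7 CPM in KO and 377.6 CPM in WT rats on average, a log2 fold change of 0.56 (edgeR adjusted p = 0.000185). CST7 changed by 0.92 (edgeR adjusted p = 0.0122) and SERPINB6, again with counts that were not whole, by 0.37 (adjusted p = 0.00814). CSTB changed by 0.04 in rats (edgeR adjusted p = 0.853), and CST3 by 0.16 in mice (limma adjusted p = 0.186).

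NEU1 and GLB1, the partners of CTSA, were lower in KO rats. NEU1, the neuraminidase held by cathepsin A, changed by -0.58 in all rats (SE 0.055, edgeR adjusted p = 1.93e-06), by -0.49 in rats 17 to 24 and by -0.67 in rats 25 to 32. GLB1, the beta-galactosidase of the complex, changed by -0.25 in all rats (SE 0.060, edgeR adjusted p = 0.00544). In rats 25 to 32 GLB1 changed by -0.32 (edgeR adjusted p = 0.00301), and in rats 17 to 24 its change of -0.17 did not pass (adjusted p = 0.24). Of 7 processing enzymes and companions these 2 passed in rats, a share near the 27.5% of all symbols called. LGMN, the legumain that cleaves cathepsin precursors, changed by -0.03 (edgeR adjusted p = 0.879), NAPSA by -0.07 (adjusted p = 0.693) and PSAP by 0.01 (adjusted p = 0.94). In mice limma called none of the 7, with 2 at an unadjusted p under 0.05 and 0 called by edgeR on reads. NEU1 there changed by -0.15 (limma adjusted p = 0.541), LGMN by 0.08, NAPSA by -0.12 and PSAP by 0.04.

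Sorting genes passed in both directions in rats, and neither TFEB nor TFE3 passed. Of 13 tested genes of mannose 6-phosphate tagging and sorting, 2 were higher (CLN6, 0.16, and M6PR, 0.15) and 2 lower in KO rats, among them the receptor IGF2R at -0.34 (edgeR adjusted p = 0.047, 0.0467 and 0.0375), where 27.5% of all symbols were called. When each of the 16 rats was left out in turn, these 3 calls held in 6, 9 and 8 of the fits. The edgeR adjusted p then ran up to 0.0896 for CLN6, 0.0942 for M6PR and 0.0981 for IGF2R. With no filter on low counts, edgeR called neither CLN6 (adjusted p = 0.0584) nor M6PR (0.0623). The CLN6 call was also lost in limma-voom (adjusted p = 0.05). In mice limma called none of the 15, with 1 at an unadjusted p under 0.05 and 0 called by edgeR on reads. FLCN was lower in rats at -0.18 (edgeR adjusted p = 0.00964), the sole one of 4 MiT/TFE genes tested to pass. TFEB changed by 0.04 and TFE3 by -0.02 in rats (edgeR adjusted p = 0.721 and 0.865), and by -0.06 and 0.03 in mice (limma adjusted p = 0.587 and 0.763).

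The other lysosomal hydrolases did not move as 1 group. In rats 3 of 29 were higher and 4 lower, with a median log2 fold change of -0.01, where 27.5% of all symbols were called. DNASE2, the acid nuclease, was higher by 0.60 (edgeR adjusted p = 0.00806), ACP2, an acid phosphatase, changed by -0.49 (adjusted p = 0.0187) and SCPEP1, a serine carboxypeptidase related to CTSA, changed by -0.28 (adjusted p = 0.00351). In mice SCPEP1 was the only 1 of 34 called by limma, and it was higher, by 0.37 (adjusted p = 0.0423). That call held in 2 of the 8 fits that left out 1 mouse, with adjusted p up to 0.113. Of 13 lysosomal membrane genes, read against the same share, MCOLN1 (-0.32), LAMP2 (-0.21) and LAMP1 (-0.21) were lower in KO rats (edgeR adjusted p = 0.0112, 0.0181 and 0.0306), the last 2 with values up to 0.0571 and 0.0776 when 1 rat was left out. In mice CTNS was the 1 gene of that list to pass.

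As a share of all reads, the 9 listed mouse cathepsins took 0.31% to 0.341% in KO and 0.264% to 0.289% in WT mice, and the ranges did not overlap. The 9 rat rows with CTSL and CTSV included took 0.955% to 1.1% of reads in KO and 0.818% to 0.931% in WT rats 25 to 32. In rats 17 to 24 the ranges overlapped, at 0.858% to 1.0% in KO and 0.938% to 1.06% in WT rats. All of these are shares of raw reads, without the TMM scaling behind the CPM values. In rats 25 to 32 the TMM factors were 1.009 to 1.0806 in KO and 0.8891 to 0.9454 in WT rats. The raw shares there therefore do not show a difference in normalised level.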

How the data were processed

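Libraries were stranded mRNA libraries (TruSeq) from 4 KO and 4 WT mice and 8 KO and 8 WT rats, grouped by the genotype label. The submitters' processing notes name bcl2fastq 2.20, STAR 2.7.3, R 3.6.1 and DESeq2 1.24.0, and the builds mm10 and rn5, without roles. The labels give no age. For the mouse the authors deposited a scaled signal per symbol. From the values, it is the reads plus 0.5 over the 75th percentile plus 0.5, and undoing this gave whole reads (within 0.01) for 99.0% of values. The rat table the authors deposited holds estimated counts, which from the values are reads with a fraction of 1 over 6 added. That fraction was taken off and counts were rounded (97.7% were whole before). Symbols are of the human style. The listed rows of the cathepsins followed here and the rat CTSV row held whole reads, the empty CTSL row aside. No other symbol had the same reads as any of these rows in all animals of the species.

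Mice were tested with limma 3.58.1 (trend, robust) on log2(value + 1), with no filter, and rats with edgeR 4.0.16 (quasi-likelihood, robust, TMM, its filter on low counts) in R 4.3.3. P-values were adjusted by Benjamini-Hochberg over all symbols with a threshold of 0.05. Because labels do not give the origin of replicates, p-values measure the spread between these animals. On simulated reads with 200 symbols changed 2-fold, 88.5% were recovered by limma in mice. The edgeR fits recovered 87.5% in rats (11584 symbols) and 69% in the interaction (11839). The mouse simulation held the 13442 symbols past a filter on low counts, while the mouse test covered 17376 without a filter. Between species, limma recovered 64.5%, with a median estimate of 0.218 on the log2(value + 1) scale for a 2-fold change. The depth of 19309449 to 44449859 reads covers counting error only, and the number of animals limits precision. Alternatives were other pseudocounts (0.1), filters, normalizations, DESeq2 1.42.0, limma-voom, edgeR on recovered mouse reads, the number range as covariate, and leaving out each animal. The cathepsins, marker lists and tests were chosen with earlier results of these data known. All 10 cathepsins were named, with other cathepsins, CTNS, a fixed set of regulators and partners, the 3 largest changes of each pathway list past the threshold, and the 3 symbols most like each cathepsin by correlation. Promoter sequences are from RefSeq (GRCr8), and mouse positions from GENCODE vM21 (GRCm38).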

Additional observations from a re-analysis of the deposited data

Results flagged for a closer look

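Of 44 groups of animals examined gene by gene, 3 held an animal far from the others by Dixon's criterion, where chance alone gives about 1 in 20. CTSA in WT mouse 2 had a scaled value of 8.98, with the other 3 WT mice at 7.003 to 7.102. CTSB in the same mouse had 22.2, with the others at 18.7 to 18.9. CTSD in WT rat 17 had 949.8 CPM, with the other 7 WT rats at 742.3 to 834.3 CPM. The genotype change differed between the rat number ranges by the edgeR interaction test for CTSD (0.86), CTSK (0.53) and CTSZ (0.88), each larger in rats 25 to 32. The CTSE change differed between species, by 0.09 on the log2(scaled value + 1) scale (rat minus mouse, limma adjusted p = 0.0137). The ratio of KO to WT means was 2.17 in rats and 0.633 in mice, where the change did not pass. It had 12 to 132 reads per mouse, and that scale understates the change of such low genes. Over 26 alternatives the difference ran from 0.073 to 1.905.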

How the results depend on the processing

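Of 15 cathepsin calls, 14 kept direction and threshold under each alternative tried, and CTSS in mice was lost without any of 7 mice. Without WT mouse 2, CTSA and CTSB passed in mice. Recovery was tested on simulated 2-fold changes only, so the smallest change detectable with 4 animals per group is not known. No paired analysis was possible because KO and WT animals share no replicate numbers. Every alternative of the plan was run. In mice, the count of all symbols called was 1198 with edgeR (383 lower) and 1518 with DESeq2 (930 higher, 588 lower), against 751 (609 higher, 142 lower) with limma. A minimum mean value of 0.1 gave 236 lower, and DESeq2 called 1 cathepsin lower. Leaving out each mouse gave 352 to 683 called, 297 to 587 higher, 34 to 145 lower and 1 to 3 cathepsins higher. Modelling the number range in rats gave 2298 lower and 1 cathepsin lower (CTSA). In rats 17 to 24, DESeq2 called 469 lower, and leaving out each rat gave 504 to 930 called, 392 to 618 higher, 112 to 312 lower and 1 to 2 cathepsins higher. In the interaction, leaving out each rat gave 1010 to 2392 called, 487 to 1025 higher and 523 to 1388 lower, with 3 to 4 cathepsins higher. Between WT rats of the ranges it gave 1 to 2 cathepsins higher. Between species, a pseudocount of 0.1 gave 99 lower, the minimum mean 232 called and 130 higher, edgeR on reads 81 lower and 1 cathepsin lower (CTSK), and leaving out animals 181 to 478 called, 87 to 281 higher and 94 to 199 lower. The sign turned, as 1 animal was left out, for log2 changes near 0 that did not pass. In mice the ranges were -0.062 to 0.025 for CTSZ, -0.011 to 0.076 for PSAP and -0.004 to 0.038 for CTSO. Over all rats they were -0.006 to 0.138 for CSTB, -0.088 to 0.043 for LGMN, -0.12 to 0.007 for NAPSA, -0.044 to 0.044 for PSAP, -0.003 to 0.089 for TFEB and -0.041 to 0.031 for TFE3. In rats 25 to 32 CTSB ran from -0.134 to 0.013. In the interaction the ranges were -0.067 to 0.078 for CTSB and -0.029 to 0.249 for CTSE, and between WT rats -0.063 to 0.061 for CTSD and -0.053 to 0.067 for CTSK. PSAP in rats was at 0 with the number range in the model. Beyond the smaller number of animals, the cause of these shifts was not tested.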
